A study of Mus musculus with 9 samples.

Results

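The genes described here encode the interleukin-6 (IL-6) family of cytokine signalling in the mouse heart, from its ligands through the shared receptor chain gp130 to STAT3 and the inhibitors of the pathway. Members were taken by name: Il6, Lif and Osm as ligands, Il6ra, Lifr, Osmr and Il6st as receptors, Stat3 as the transcription factor, and Socs3 and Socs1 as inhibitors. Every non-control probe whose accession maps to one of these symbols was used, which gave 16 of 41174 probes and 9 of the 10 genes, among 27773 genes tested. No probe was matched to Lif, which is not analysed here. All 16 probes passed the filter on dim probes.

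Heart RNA was measured in 4 mice labelled RORasg/sg and 5 mice labelled WT, with 1 single-colour Agilent array a heart. RORasg/sg mice are homozygous for staggerer, a mutation that deletes part of Rora and so removes the nuclear receptor RORalpha, in all cells of the body from conception. The mice of both groups were male, of the C57BL/6 strain and 3 to 4 months old, were weaned at 3 weeks onto NIH31 diet and received no treatment. The comparison asked how loss of RORalpha alters heart transcripts, within work on cardiac hypertrophy. RNA came from whole heart, so fewer cells of a type and less RNA per cell cannot be told apart.

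Cytokines of this family bind a receptor chain of their own, such as the IL-6 receptor, the LIF receptor or the oncostatin M receptor, which pairs with gp130, encoded by Il6st. JAK kinases held by these receptors then phosphorylate STAT3, which moves to the nucleus and switches on target genes, among them Socs3, whose product shuts gp130 signalling down again. In the heart, gp130 and STAT3 signalling is known for its part in cardiomyocyte survival and hypertrophy, and oncostatin M for its action on cardiomyocytes and fibroblasts.

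Promoter sequences of the members are shown for the sites through which STAT3 and RORalpha are known to bind DNA. The 250 bases upstream of each annotated start were searched on both strands in 10 windows of 9 genes (RefSeq, GRCm38.p6; no window was matched to Osm). The STAT motif TTCNNNGAA, a palindrome, was found in 1 of the 10 windows, that of Socs3, against 7.02% of all 32851 windows. It lies 154 to 146 bases upstream of the start, at the minus strand window chr11:117969367-117969616, and is in capitals.
Socs3: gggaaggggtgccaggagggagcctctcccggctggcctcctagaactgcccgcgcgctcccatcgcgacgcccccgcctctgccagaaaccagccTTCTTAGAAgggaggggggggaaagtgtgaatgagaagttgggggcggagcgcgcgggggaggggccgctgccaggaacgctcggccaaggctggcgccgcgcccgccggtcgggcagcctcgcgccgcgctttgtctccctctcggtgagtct
The RORalpha half-site, searched as TAGGTCA and as TGGGTCA, was found in 0 and 1 of the 10 windows, against 2.23% and 3.24% of all windows. The single match was on the reverse strand, 187 to 181 bases upstream of one of 2 Lifr starts, in the plus strand window chr15:7140292-7140541, where the capitals mark it.
Lifr: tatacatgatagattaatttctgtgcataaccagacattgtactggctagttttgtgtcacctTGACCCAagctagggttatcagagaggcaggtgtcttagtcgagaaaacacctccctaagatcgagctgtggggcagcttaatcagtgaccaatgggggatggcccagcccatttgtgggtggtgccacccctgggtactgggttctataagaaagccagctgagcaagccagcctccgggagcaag
These are matches of letters only, and binding was not measured.

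The arrays of the RORasg/sg group were not alike. The 75th percentile of processed signal was 774 on the array of RORasg/sg 1 and 263 to 390 on those of RORasg/sg 2, 3 and 4, against 436 on WT 4 and 546 to 681 on the other 4 WT arrays. The share of probes well above background lay between 80.7% and 87.7%. Where 2 probes measure the same gene (3561 genes), their deviations from the mean of WT 1, 2, 3 and 5 differed by a median of 0.50 log2 units on RORasg/sg 1 and by 1.21 to 1.51 on RORasg/sg 2, 3 and 4. The same measure was 0.97 on WT 4 and 0.20 to 0.24 on the 4 WT arrays that form that mean. All values below are log2 of processed signal minus the array's 75th percentile unless stated. On this scale the differences of all 27773 genes, RORasg/sg minus WT, had a median of 0.40. It is called the median of all genes below.

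Rora itself separated the groups. Its probe A_51_P477779 read 0.08, -2.71, -1.01 and -1.99 in RORasg/sg hearts 1 to 4, against 2.88, 3.29, 2.89, 1.51 and 3.06 in WT hearts 1 to 5. The difference was -4.13 ± 0.61 (log2, SE), and the adjusted p of limma over all probes was 0.296. Rora was negative in all 29 alternative fits over genes. It passed an adjusted p of 0.05 in limma without RORasg/sg 1 (adjusted p = 0.00138), where 10398 genes passed. Array weights (15138 genes called) and replicate number as a block (9 genes called) also called it. The fit on the brighter arrays, with a single mutant heart, is not counted here. Probe A_52_P652442 gave -5.34 ± 0.82 (log2, SE), again without overlap of the groups. The remaining probe, A_52_P652950, was dim and gave -1.08 ± 0.78. Whether these probes lie inside the deleted stretch was not tested.

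None of the 9 measured members passed the test between RORasg/sg and WT hearts at an adjusted p of 0.05 in limma, where 1 of 27773 genes did (0.0036%). None passed an unadjusted p of 0.05 in either direction, a threshold that 4.89% of all genes passed as higher and 6.64% as lower in RORasg/sg. The mean was higher in RORasg/sg for 4 members and lower for 5, and their median difference was -0.14 against 0.40 over all genes. That median is the value of Il6, whose probe was close to the detection limit. Groups overlapped for every member, whereas 1.1% of all genes lay wholly higher and 1.71% wholly lower in RORasg/sg. Il6st, Stat3 and Lifr came nearest to the threshold, each with a lower mean in RORasg/sg, and in each of them RORasg/sg 1 was the highest of the mutant hearts.

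**Figure D1:**
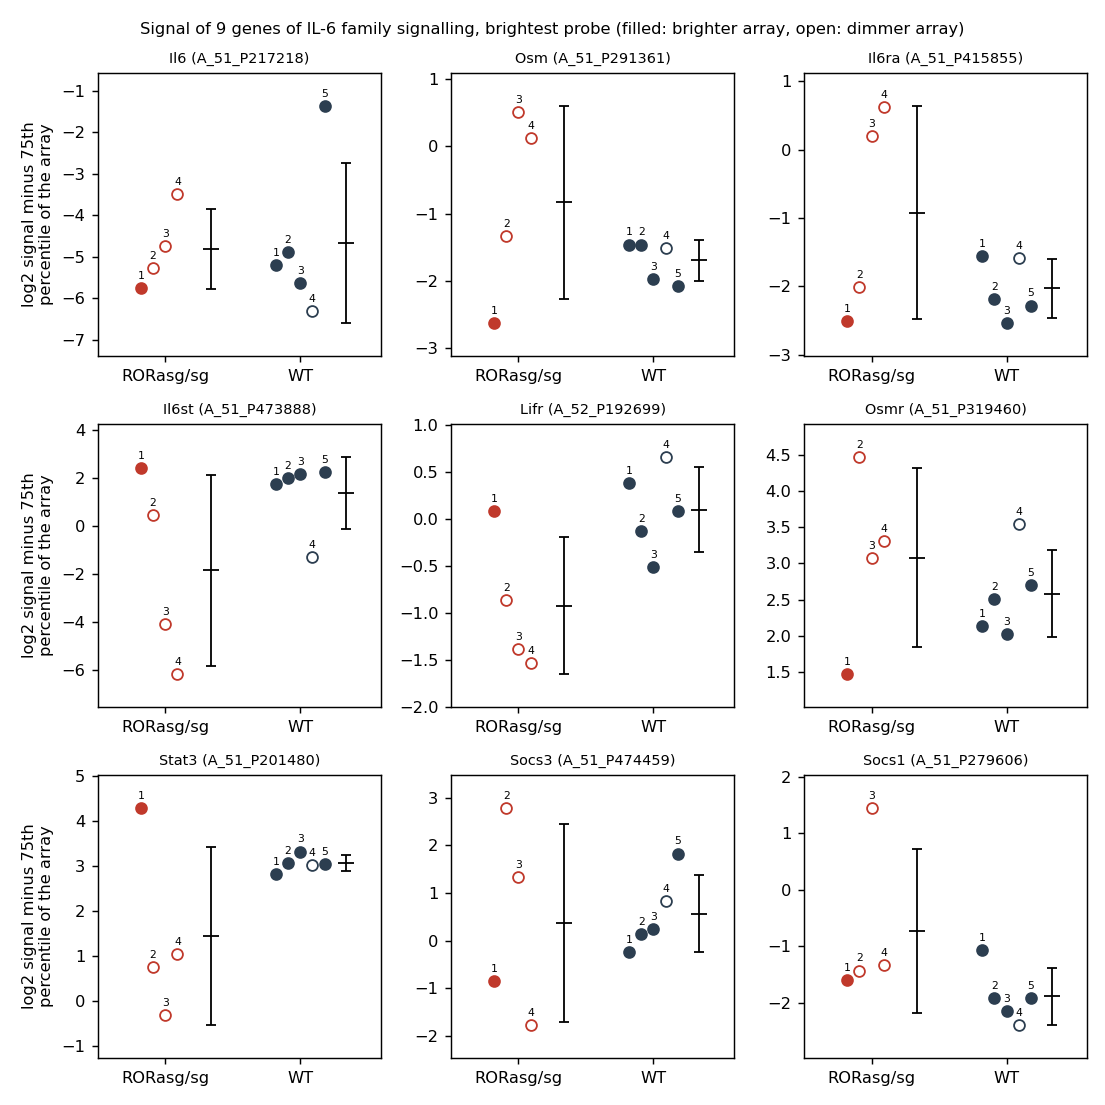
Signal of the 9 measured members in each heart, RORasg/sg left and WT right, as log2 of processed signal minus the array's 75th percentile (y axis). Numbers are replicates, filled points are the 5 brighter arrays (75th percentile of at least 500) and open points the 4 dimmer ones, and bars give mean and SD. For Stat3, RORasg/sg 1 lies above all 5 WT hearts and RORasg/sg 2, 3 and 4 lie below them.

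Among the ligands, Il6, the founding cytokine of the family, was close to the detection limit. Its probe, printed as 10 spots an array, gave processed signals of 14.4, 7.64, 14.7 and 23.5 in RORasg/sg hearts 1 to 4, against 18.5, 21.8, 12.8, 5.55 and 212 in WT hearts 1 to 5. It was well above background on 3 of 4 RORasg/sg and 4 of 5 WT arrays, and WT 5 alone was bright. The difference was -0.14 ± 0.90 (log2, SE; adjusted p = 0.931, limma), with a 95% confidence interval of -2.10 to 1.83. The difference was 0.69 without WT 5 and 0.18 without RORasg/sg 1, so its sign can turn when 1 heart is left out.

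Osm encodes oncostatin M, a cytokine made mainly by macrophages, neutrophils and T cells. Its brighter probe A_51_P291361 read -2.63, -1.33, 0.50 and 0.12 in RORasg/sg hearts 1 to 4, against -1.46, -1.46, -1.97, -1.51 and -2.08 in WT hearts 1 to 5. On this scale RORasg/sg 1 was below every WT heart and the other 3 mutant hearts were above every WT heart. Its processed signal before scaling was 125, 117, 553 and 286 in RORasg/sg hearts 1 to 4 and 129 to 247 in WT hearts. RORasg/sg 2 was thus above the WT hearts only after scaling. The difference over all 9 hearts was 0.86 ± 0.61 (log2, SE; adjusted p = 0.441, limma), and 0.29 without scaling. The dim probe A_52_P348614 gave 0.81 ± 0.74, ran the same way in each mutant heart, and was well above background on 3 of 4 RORasg/sg and 2 of 5 WT arrays.

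Summed markers of immune cells were also higher on RORasg/sg 2, 3 and 4 than on RORasg/sg 1. The summed signal of 7 lymphocyte markers, in percent of each array's 75th percentile, came to 132, 965, 1290 and 877 in RORasg/sg hearts 1 to 4 and 190 to 302 in WT hearts. Over 8 macrophage markers the sum came to 1470, 4750, 2600 and 3210 in RORasg/sg hearts 1 to 4, against 1320 to 1590 in WT 1, 2, 3 and 5 and 3360 in WT 4. The 5 measured neutrophil markers summed to 169 to 1110 in RORasg/sg and 200 to 515 in WT hearts, and Csf3r, the receptor of the neutrophil growth factor G-CSF, was not well above background on any array. The part of these cells in the Osm values was not tested.

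Il6st, the gene of gp130, had the largest mean difference among the members and the widest spread. Its processed signal came to 4200, 408, 23.4 and 3.69 in RORasg/sg hearts 1 to 4, against 2320, 2580, 2830, 180 and 2660 in WT hearts 1 to 5. After scaling, these became 2.44, 0.48, -4.06 and -6.16 in RORasg/sg hearts and 1.77, 2.0, 2.17, -1.28 and 2.28 in WT hearts. RORasg/sg 1 was the highest of all 9 hearts, RORasg/sg 3 and 4 were the lowest, and WT 4 was below RORasg/sg 2. The single probe was well above background on 3 of 4 RORasg/sg arrays and all 5 WT arrays. The means were -1.82 ± 3.97 in RORasg/sg (SD, n = 4) and 1.39 ± 1.50 in WT (SD, n = 5). Their difference of -3.21 ± 1.50 (log2, SE) had a 95% confidence interval of -6.48 to 0.05 and an adjusted p of 0.42 in limma. With normexp background correction, which lifts signals near background, it was -1.86 ± 0.94.

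Il6ra, the IL-6 binding receptor chain, was measured by 2 probes that disagreed. Probe A_51_P415855 read -2.50, -2.01, 0.20 and 0.62 in RORasg/sg hearts 1 to 4, against -1.56, -2.18, -2.54, -1.59 and -2.28 in WT hearts 1 to 5. Only RORasg/sg 3 and 4 exceeded the WT hearts on it, and the difference was 1.11 ± 0.66 (log2, SE; adjusted p = 0.421, limma). Probe A_51_P415863 read -2.52 to -1.76 in RORasg/sg and -2.72 to -2.01 in WT hearts, a difference of 0.16 ± 0.38 (log2, SE).

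Lifr, the receptor chain for LIF, was measured by 5 probes, and these went in both directions. On probe A_52_P192699, the one with the highest mean signal, RORasg/sg hearts 1 to 4 read 0.08, -0.86, -1.39 and -1.53, against 0.38, -0.13, -0.51, 0.66 and 0.09 in WT hearts 1 to 5. RORasg/sg 2, 3 and 4 lay below every WT heart and RORasg/sg 1 within them, for a difference of -1.02 ± 0.48 (log2, SE; adjusted p = 0.42, limma). Probe A_52_P297113 gave the smallest p among the member probes: it read -0.77, -3.62, -4.30 and -4.44 in RORasg/sg hearts 1 to 4 and -2.06 to -0.38 in WT hearts, a difference of -2.44 ± 0.73 with an adjusted p of 0.312 over 36402 probes.

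Probe A_51_P113182 of Lifr ran the other way. It read -0.44, -1.38, -0.55 and -0.95 in RORasg/sg hearts 1 to 4, against -1.67, -1.94, -1.58, -1.87 and -1.49 in WT hearts 1 to 5. It was the only member probe on which the groups did not overlap after scaling, and 1.21% of all probes lay wholly higher in RORasg/sg. Before scaling the groups overlapped on it. The processed signal was 571, 113, 267 and 136 in RORasg/sg hearts 1 to 4 and 120 to 214 in WT hearts. Its difference was 0.88 ± 0.40 (log2, SE; adjusted p = 0.39, limma), and 0.31 without scaling. The remaining 2 Lifr probes gave differences of -1.01 ± 0.64 (A_52_P579352) and -1.95 ± 1.04 (A_52_P438170), the second being detected above background on 1 of 4 RORasg/sg arrays and 5 of 5 WT arrays. Against the mean of WT 1, 2, 3 and 5, the 5 probes spanned 1.54 log2 units on RORasg/sg 1 and 4.62 to 4.89 on RORasg/sg 2, 3 and 4. On WT 4 they spanned 3.14, and on the other WT arrays 0.25 to 0.56.

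Osmr, the oncostatin M receptor chain, showed the same split between its 2 probes. Probe A_51_P319460 read 1.47, 4.47, 3.07 and 3.31 in RORasg/sg hearts 1 to 4, against 2.14, 2.51, 2.02, 3.54 and 2.70 in WT hearts 1 to 5. RORasg/sg 1 was the lowest heart and RORasg/sg 2 the highest, and the difference was 0.50 ± 0.57 (log2, SE; adjusted p = 0.597, limma). It was -0.07 without scaling. On probe A_52_P495729 the processed signal came to 423, 2.86, 3.59 and 2.32 in RORasg/sg hearts 1 to 4 and 328, 190, 224, 6.23 and 398 in WT hearts 1 to 5. The 4 dimmer arrays, WT 4 among them, were not well above background there, and the difference was -3.11 ± 1.38 (log2, SE; adjusted p = 0.388, limma). The 2 probes lay 6.30 to 7.62 log2 units apart on RORasg/sg 2, 3 and 4 and 6.14 apart on WT 4, against 1.19 on RORasg/sg 1 and 0.03 to 0.74 on the other WT arrays.

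**Figure D2:**
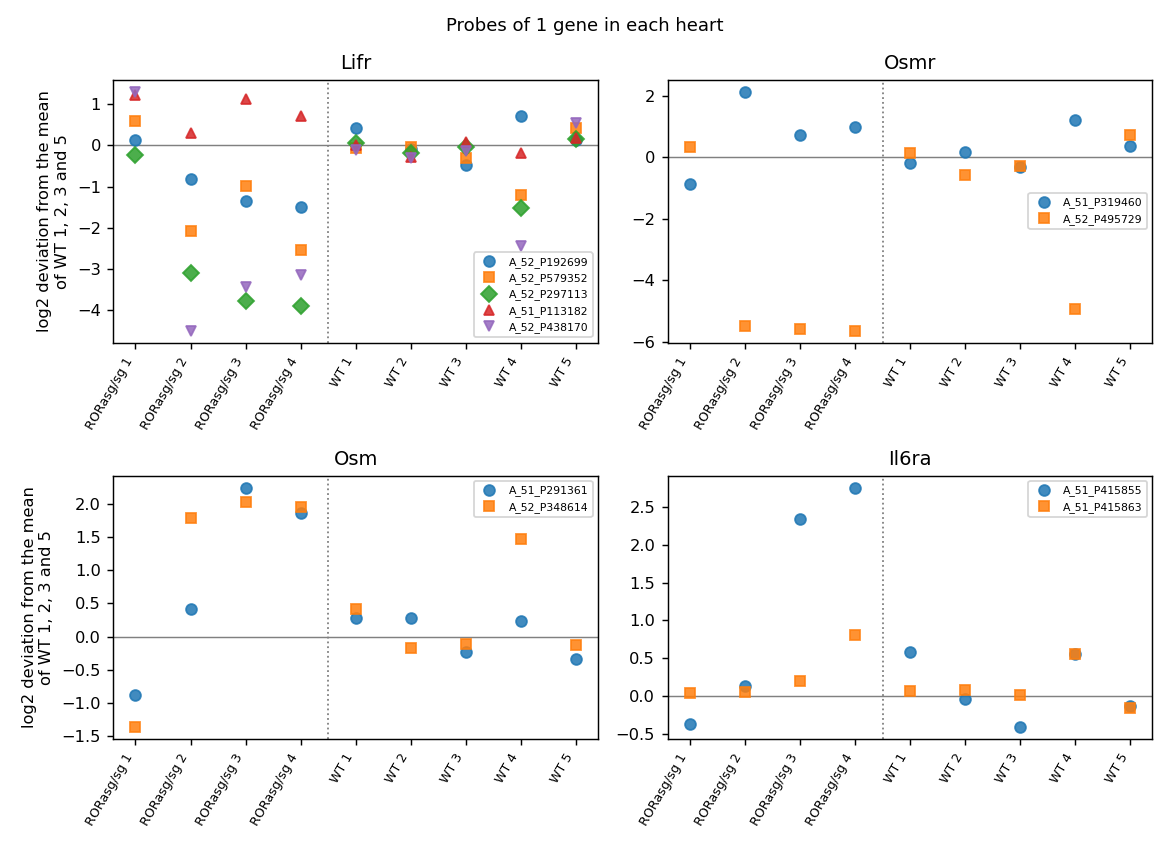
Log2 deviation of each probe from its own mean over WT 1, 2, 3 and 5 (y axis) in the 9 hearts (x axis, RORasg/sg left of the dotted line and WT right of it), for the 4 members with more than 1 probe. Probes of Lifr and Osmr part widely on RORasg/sg 2, 3 and 4 and on WT 4, while both Osm probes lie above 0 on those 4 arrays.

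Over the 16 member probes, none passed an adjusted p of 0.05 in limma, as 0.00275% of all probes did. At an unadjusted p of 0.05, 1 member probe was higher in RORasg/sg, a threshold that 4.46% of all probes passed as higher. At the same threshold 2 were lower, against 8.31% of all probes. Probes of 1 gene are not replicates of the comparison.

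Stat3, the transcription factor that carries the signal to the nucleus, was measured by 1 probe printed as 10 spots. Its processed signal came to 15200, 491, 315 and 546 in RORasg/sg hearts 1 to 4, against 4820, 5370, 6290, 3570 and 4510 in WT hearts 1 to 5. After scaling, these became 4.29, 0.75, -0.31 and 1.05 in RORasg/sg hearts and 2.82, 3.06, 3.32, 3.03 and 3.05 in WT hearts. RORasg/sg 1 was above all WT hearts and RORasg/sg 2, 3 and 4 were below all of them, while WT 4, also a dimmer array, lay among the other WT hearts. The means were 1.45 ± 1.98 in RORasg/sg (SD, n = 4) and 3.06 ± 0.18 in WT (SD, n = 5). The difference of -1.61 ± 0.75 (log2, SE) had a 95% confidence interval of -3.24 to 0.02 and an adjusted p of 0.42 in limma.

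Of the inhibitors, Socs3 binds gp130 and the JAK kinases and is itself a STAT3 target. It read -0.85, 2.79, 1.33 and -1.78 in RORasg/sg hearts 1 to 4, against -0.24, 0.15, 0.25, 0.83 and 1.83 in WT hearts 1 to 5. RORasg/sg 2 lay above the WT range, RORasg/sg 3 within it and RORasg/sg 1 and 4 below it. The difference was -0.19 ± 0.85 (log2, SE; adjusted p = 0.895, limma), and it turned to 0.22 without RORasg/sg 1, 0.53 without RORasg/sg 4 and 0.13 without WT 5. Socs1, an inhibitor of JAK kinases induced above all by interferons, read -1.59, -1.43, 1.45 and -1.33 in RORasg/sg hearts 1 to 4, against -1.06, -1.91, -2.14, -2.40 and -1.92 in WT hearts 1 to 5. RORasg/sg 3 stood above all others, and the difference was 1.16 ± 0.64 (log2, SE; adjusted p = 0.42, limma).

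Each heart was left out in turn, and members passed an adjusted p of 0.05 in limma only when RORasg/sg 1 was the one left out. Then 10398 genes passed, 28.5% of all genes as higher and 8.92% as lower in RORasg/sg, and the median of all genes was 0.68. Of the 9 members, Osm passed as higher and Stat3, Il6st and Lifr as lower. The 95% confidence interval of Osm, 0.46 to 2.46, still included that median of all genes. The differences without RORasg/sg 1 were -2.56 ± 0.36 for Stat3, -4.64 ± 1.39 for Il6st, -1.36 ± 0.37 for Lifr and 1.46 ± 0.44 for Osm (log2, SE). Those of Il6ra (1.63 ± 0.58) and Osmr (1.03 ± 0.45) did not pass. RORasg/sg 1 lay on the WT side of the other mutant hearts for Stat3, Il6st and Lifr, so leaving it out lowers the spread and moves the mean away from WT at once, and these values describe the other 3 hearts and are no further support for a difference.

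RORasg/sg 1 was also set beside the WT hearts on the other brighter arrays, WT 1, 2, 3 and 5. With a single mutant heart this is a description with no test. Relative to the mean of those WT hearts, RORasg/sg 1 read 1.23 for Stat3, 0.38 for Il6st, 0.12 for Lifr, -0.89 for Osm and -0.87 for Osmr, where the median of all genes was -0.35. On the 4 dimmer arrays, where WT 4 is the single WT heart, the mean of RORasg/sg 2, 3 and 4 minus WT 4 was -2.54 for Stat3, -1.97 for Il6st and -1.92 for Lifr, where the median of all genes was 0.50. With array brightness as a covariate over all 9 hearts, Il6st was -0.91 ± 1.38, Stat3 -0.52 ± 0.66 and Lifr -0.68 ± 0.48 (log2, SE), while Rora was -3.16 ± 0.44.

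The arrays were on 3 slides, 2 of which held both groups. On slide 1 (RORasg/sg 1 and 2, WT 1 and 2) the differences were -0.42 for Stat3, -0.43 for Il6st, -0.52 for Lifr and -0.52 for Osm. On slide 2 (RORasg/sg 3 and 4, WT 3 and 4) they were -2.81 for Stat3, -5.56 for Il6st, -1.54 for Lifr and 2.05 for Osm. Stat3, Il6st and Lifr kept their sign within both slides, as did Osmr (0.64 and 0.41). On slide 1, however, RORasg/sg 1 lay above both WT hearts for Stat3 and Il6st, and RORasg/sg 2 lay below them. The SE on slide 1 was larger than the difference, at 1.15 for Stat3, 0.84 for Il6st and 0.72 for Lifr. Osm, Il6 (-0.46 and 1.85), Il6ra (-0.39 and 2.48), Socs3 (1.01 and -0.77) and Socs1 (-0.02 and 2.33) changed sign between slide 1 and slide 2. No gene was called within either slide.

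**Figure D3:**
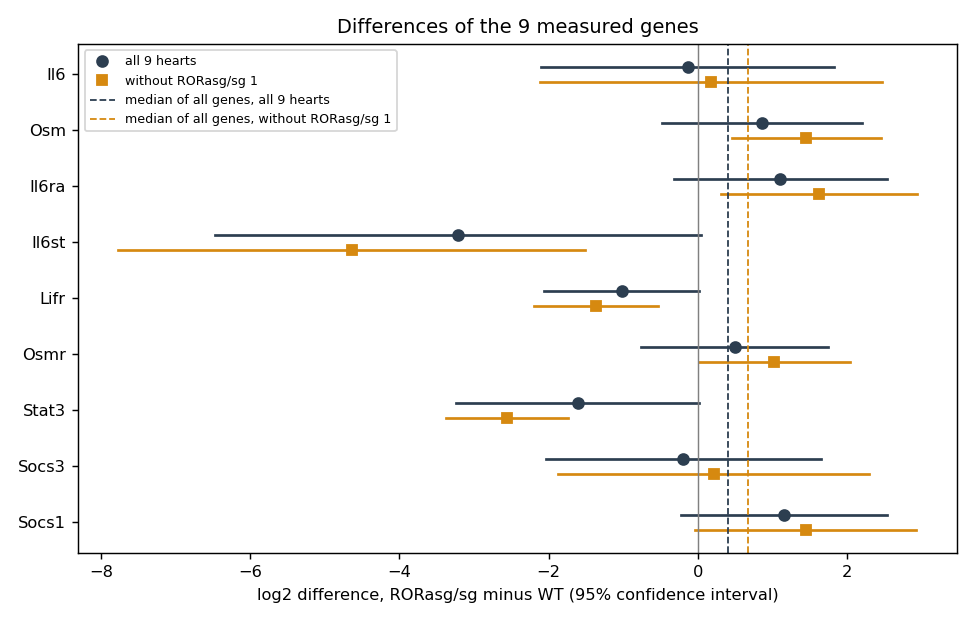
Log2 difference, RORasg/sg minus WT, with its 95% confidence interval (x axis) for the 9 measured members, over all 9 hearts (circles) and without RORasg/sg 1 (squares). Dashed lines give the median of all genes, 0.40 and 0.68. The intervals of Il6st, Lifr, Stat3, Il6ra, Osm and Osmr exclude 0 only without RORasg/sg 1. Those of Il6ra, Osm and Osmr without that heart include 0.68.

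Cardiomyocyte markers also differed among the mutant hearts. The summed signal of 8 such genes, in percent of each array's 75th percentile, came to 69200, 57500, 21600 and 20700 in RORasg/sg hearts 1 to 4 and 59300 to 70200 in WT hearts. RORasg/sg 2, 3 and 4 were below every WT heart, RORasg/sg 2 only slightly, and RORasg/sg 1 was within the WT range. All 8 had a lower mean in RORasg/sg, with a median of -1.31, and none passed the adjusted threshold. At an unadjusted p under 0.05 in limma, 4 of the 8 were lower, against 6.64% of all genes. Fibroblast markers (8 genes) summed to 9080, 22500, 14600 and 13000 in RORasg/sg hearts 1 to 4, against 6240 to 10500 in WT hearts. Only 5 of the 8 had a higher mean in RORasg/sg, with a median difference of 0.23 against 0.40 over all genes, and the collagen genes Col1a1 (1.67) and Col3a1 (1.51) differed most. Of 8 endothelial markers, 6 had a lower mean in RORasg/sg, with a median of -1.39 over the 8. At an unadjusted p under 0.05 in limma, 4 were lower, against 6.64% of all genes. Flt1, a VEGF receptor, differed by -2.25 and lay wholly lower in RORasg/sg, as 1.71% of all genes did. The endothelial sum was 2870, 5160, 3080 and 1560 in RORasg/sg hearts 1 to 4 and 2110 to 3860 in WT hearts. The part of cell makeup in the member values was not tested.

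The other genes of the pathway were read from fixed lists, and none of them passed an adjusted p of 0.05 in limma over all genes. Among the 9 other ligands, 8 had a higher mean in RORasg/sg, and the median difference was 0.44 against 0.40 over all genes. Il11, a gp130 cytokine known for its part in cardiac fibrosis, was the 1 of the 9 with an unadjusted p under 0.05. That threshold was passed as higher by 4.89% of all genes. It read -2.37, -0.08, 0.38 and 0.74 in RORasg/sg hearts 1 to 4 and -2.69 to -1.83 in WT hearts, so RORasg/sg 1 lay within the WT range and the other 3 above it. The difference was 1.86 ± 0.61 (log2, SE; adjusted p = 0.394), and 2.54 ± 0.36 without RORasg/sg 1. Clcf1 (0.80), Il27 (0.89) and Ebi3 (-0.47), cytokine subunits of the same family, did not pass either threshold.

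Of the 5 measured other receptors and sheddases, 3 had a higher and 2 a lower mean in RORasg/sg, none at an unadjusted p under 0.05. Adam17, a protease that releases the soluble IL-6 receptor, differed by -1.50 ± 1.11 (log2, SE) and Il11ra1, the IL-11 receptor chain, by -0.30 ± 0.31. Among 13 kinases, adaptors and other STATs, 7 means were higher and 6 lower, with a median of 0.28. Jak3, the kinase of the common gamma chain receptors, had 1.24 ± 0.56 (adjusted p = 0.42), and was -0.05 when the probes of the gene were averaged. It was the 1 of the 13 with an unadjusted p under 0.05 in limma, which 4.89% of all genes passed as higher. Jak1 (0.78 ± 0.47) and Jak2 (-0.94 ± 0.71), kinases that gp130 itself uses, did not pass either threshold.

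The 14 other inhibitors had 10 higher and 4 lower means in RORasg/sg and a median of 0.47. The lowest p belonged to Socs5 (-1.82 ± 0.59, log2 and SE; adjusted p = 0.384), a relative of Socs3 known for damping EGF receptor and IL-4 signalling. It read -0.86, -3.80, -2.44 and -3.24 in RORasg/sg hearts 1 to 4 and -1.42 to -0.25 in WT hearts, again with RORasg/sg 1 among the WT hearts. Without RORasg/sg 1 its difference was -2.40 ± 0.41. Socs6 had -1.39 ± 0.61 (adjusted p = 0.42). Socs5 and Socs6 were the 2 of the 14 with an unadjusted p under 0.05 in limma, which 6.64% of all genes passed as lower. Cish (1.19 ± 0.64), a STAT5 target that damps cytokine receptors, and Pias3 (0.84 ± 0.49), an inhibitor of STAT3 itself, did not pass either threshold.

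Of 34 STAT3 target genes on the list, 32 were measured. Their means were higher in RORasg/sg for 21 and lower for 11, with a median of 0.37 against 0.40 over all genes. At an unadjusted p under 0.05, 1 of the 32 was higher and 4 were lower, against 4.89% and 6.64% of all genes, and 2 lay wholly lower in RORasg/sg, against 1.71% of all genes. Fgf2, a growth factor, had the smallest p: it read -1.54, -4.96, -6.42 and -5.52 in RORasg/sg hearts 1 to 4 and -1.07 to -0.32 in WT hearts. Its difference was -3.80 ± 0.80 (log2, SE; adjusted p = 0.343, limma), on a probe well above background on 1 of 4 RORasg/sg and 5 of 5 WT arrays. When only probes detected on all arrays were used, another Fgf2 probe took its place and gave 0.24, and normexp background correction gave -1.45 for the gene.

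The immediate early gene Fos was the other target with groups that did not overlap, at -1.81 ± 0.50 (log2, SE; adjusted p = 0.375, limma) and well above background on 2 of 4 RORasg/sg arrays. Serpina3n, a protease inhibitor of the acute phase, had -2.0 ± 0.56 and was well above background on 1 of 4 RORasg/sg arrays. With normexp background correction Fos was -0.32 ± 0.26 and Serpina3n -0.15 ± 0.26. Nfkbiz, a nuclear regulator of NF-kB target genes, had -2.28 ± 0.66, and -0.98 ± 0.38 with normexp. In the other direction, Il1rn, the IL-1 receptor antagonist, had 1.35 ± 0.51, and 0.70 ± 0.30 with normexp. Junb, an AP-1 subunit, had 0.61 ± 0.28. Junb read 6.28 in RORasg/sg 1 and 7.30 to 7.65 in RORasg/sg 2, 3 and 4, against 6.38 to 6.70 in WT hearts. Before scaling its processed signal overlapped, at 60200, 46300, 62800 and 52800 in RORasg/sg hearts 1 to 4 and 42000 to 61200 in WT hearts. The Junb difference was 0.04 without scaling and 0.19 with quantile normalization.

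**Figure D4:**
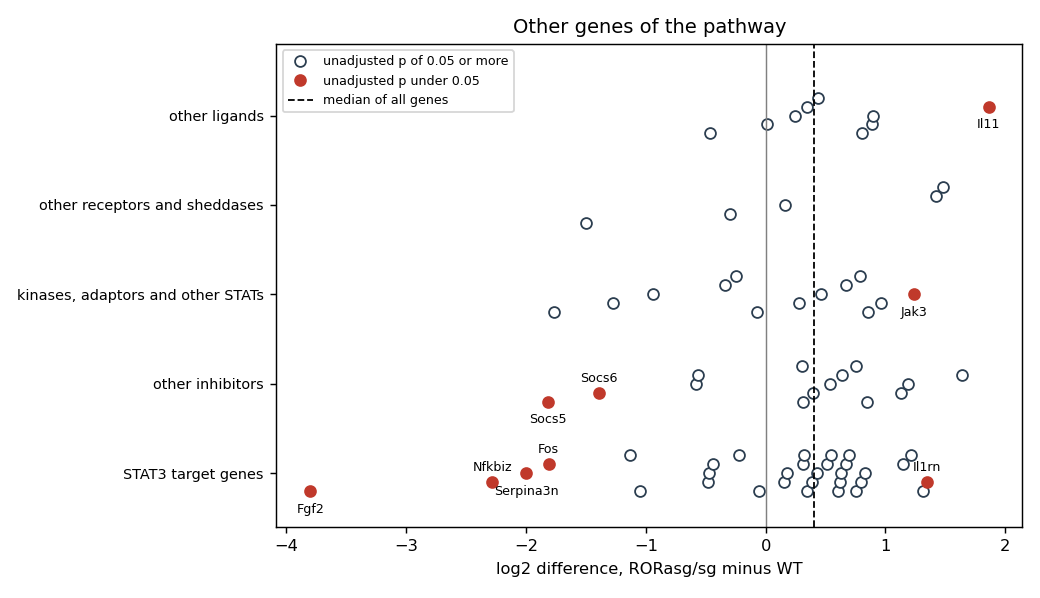
Log2 difference, RORasg/sg minus WT, over all 9 hearts (x axis) for the other genes of the pathway, 1 point a gene, by list (y axis). Filled and named points had an unadjusted p under 0.05, none passed the adjusted threshold, and the dashed line is the median of all genes, 0.40.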

How the data were processed

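Total RNA (70 ng) from each heart was amplified (NuGEN Ovation Pico WTA), and 5 ug of product was labelled with Cy3, per the labels' protocols. Per the file headers, Feature Extraction 12.0.0.7 (protocol GE1_1200_Jun14, design 014868, grid build mm9) read the arrays, and Agilent Feature Extraction 12 is named in the submitters' processing notes. The deposited intensity of a spot is its processed signal, background-subtracted and not scaled between arrays. The series' value table held the same intensities, with a largest relative difference of 0.

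Of 43379 non-control spots, those flagged as outliers were left out (758 over the arrays, with 0 saturated). Spots of a probe were averaged, and log2 values were taken relative to each array's 75th percentile. The filter kept 36402 probes that were well above background in 4 or more of 9 arrays, and the brightest probe stood for a gene. Accessions were named through RefSeq GRCm38.p6 (28223 of 41174 probes, 19096 symbols), and its coordinates are given only for promoters. The test was limma 3.58.1 (lmFit, then eBayes with a trend, Benjamini-Hochberg over all genes or probes) in R 4.3.3, with version 1.17.8 of data.table, matplotlib 3.10.9 and Python 3.11.15. Each heart is that of a different mouse, and precision is limited by how few arrays there are. The pipeline was tested on simulated data. The members, lists and tests were chosen with earlier results of these data known. The text names every member and Rora probe, pathway list genes with an unadjusted p under 0.05 or a stated role, up to 3 genes of a cell type list, and the 6 STAT3 targets with the smallest p. Alternatives were other scalings, background corrections, filters, probe rules, blocks, weights and subsets of arrays.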

Additional observations from a re-analysis of the deposited data

Results flagged for a closer look

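In 8 of the 32 sets of 1 probe in 1 group, the highest or lowest heart stood apart from its nearest neighbour by more of the group's range than Dixon's 95% limit allows. Chance flags about 1 set in 20, and probes of 1 array are not independent. All values are log2 of processed signal minus the array's 75th percentile.

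Among RORasg/sg hearts, Socs1 in RORasg/sg 3 stood high at 1.45. RORasg/sg 1 stood low at -6.99 on Osm probe A_52_P348614 and high at -0.87 on Osmr probe A_52_P495729. Among WT hearts, WT 4 stood low on 4 probes. It read -1.28 for Il6st, -2.06 on Lifr probe A_52_P297113, -4.70 on Lifr probe A_52_P438170 and -6.13 on Osmr probe A_52_P495729. Il6 in WT 5 stood high at -1.36.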

How the results depend on the processing

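With all 9 hearts, 0 of 9 members passed an adjusted p of 0.05, and 0 were higher and 0 were lower by the unadjusted p. The members' median minus that of all genes was -0.54. It was -0.29 with normexp background correction and 0.07 over the 7 members left when only probes detected on all arrays were used. The count lower at an unadjusted p was 1 under scaling to the array median, quantile normalization and no scaling. It was also 1 with the percentile over probes detected on all arrays, normexp (offset 50), no filter and probes detected on all arrays. The mean of a gene's probes, slide as a block and eBayes without trend gave 1 too. Slide 2 gave 2 lower and 2 higher. The share of all genes at an unadjusted p was computed only for the fit used in the Results. Counts under the alternatives therefore cannot be read against such a share. Array weights called 6 members (unadjusted, 4 higher and 3 lower) among 15138 genes called (10502 higher and 4636 lower). The 5 brighter arrays have a single mutant heart and the 4 dimmer ones a single WT heart, so only differences are given for them. Leaving out 1 heart gave 0 to 4 members called, 0 to 3 higher, 0 to 3 lower, and a median minus that of all genes of -0.69 to 0.16, all 4 calls without RORasg/sg 1. The replicate numbers did not pair the hearts: same-numbered deviations correlated at 0.05, -0.01, -0.33 and 0.39, over 0.1 only for number 4. The replicate block called 9 genes and 0 members, with 2 members lower at an unadjusted p and a median minus that of all genes of 0.16, and slide as a block gave 0.16 too. Both blocks turned Il6 to 0.69 and Socs3 to 0.13. Signs also turned for Osmr without scaling (-0.0731), with the mean of its probes (-1.31) and with brightness as a covariate (-0.45). Normexp turned Il6 (0.11) and Rora probe A_52_P652950 (0.18). Slide 1 turned Il6ra (-0.39), Socs3 (1.01), Socs1 (-0.0244), Osm (-0.52) and Il6ra probe A_51_P415863 (-0.0294), and slide 2 turned Il6 (1.85) and Rora probe A_52_P652950 (1.30). Il6ra probe A_51_P415863 turned without scaling (-0.41), with brightness as a covariate (-0.0408) and on the dimmer arrays (-0.20), which also turned Il6 (1.80) and Rora probe A_52_P652950 (0.17). Brightness as a covariate turned Lifr probe A_52_P579352 (0.0754) and Osm probe A_52_P348614 (-0.42). Array weights turned Socs3 (0.35), probes detected on all arrays turned Fgf2 (0.24), and the mean of the probes turned Jak3 (-0.0481). The brighter arrays turned Il6ra (-0.37), Il6st (0.38), Stat3 (1.23), Lifr (0.12), Osm (-0.89), Osmr (-0.87), Il11 (-0.10), Jak3 (-0.40), Nfkbiz (0.0751), Junb (-0.24), Lifr probes A_52_P579352 (0.60) and A_52_P438170 (1.30), Osm probe A_52_P348614 (-1.36) and Osmr probe A_52_P495729 (0.32). Leaving out 1 heart moved Il6 between -0.58 and 0.69, Socs3 between -0.998 and 0.53 and Il6ra probe A_51_P415863 between -0.0124 and 0.27. The causes were not tested. Rora had an adjusted p in limma of 0.0332 with the replicate block, 0.000133 with array weights and 0.00138 without RORasg/sg 1. Signals near background limit Il6, Il6st in RORasg/sg 3 and 4 (-1.86 with normexp), Fgf2, Fos, Serpina3n, Osmr probe A_52_P495729 and Lifr probe A_52_P438170. They also limit Il1rn (0.70 with normexp).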
